A study of Mus musculus with 237 samples.

Results

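The cells described here are the wild-type cap mesenchyme of the mouse embryonic kidney at E18.5 and at E13.5, days counted in embryonic development. The E18.5 group was made up of the 74 cells whose source label names the cap mesenchyme and its descendants at that age, and the E13.5 group of 18 cells with the matching label, all from pool 3. Together these were 92 of the 237 cells of the series. Both groups are labelled wild type and of mixed strain, and no transgene, agent or embryo is named for either. The comparison was repeated in the 62 E18.5 and 14 E13.5 cells with Six2 at 1 RPKM or more. Six2 marks the nephron progenitor, so the repeat sets progenitors late in nephron formation beside progenitors early in it. RPKM is the number of reads scaled to transcript length and to all mapped reads. Kidneys were dissociated with proteases, the cells of interest were enriched by FACS with a marker the labels do not name, and single cells were captured on a Fluidigm C1 device. Cells set beside them, which share no cell with this comparison, are 44 E18.5 and 29 E13.5 cap cells labelled Pax2 mutant, and 71 E18.5 wild-type interstitium cells of 2 pools whose titles name FoxD1 GCE. The nature of the Pax2 allele is not given in the sources used here.

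Nephrons form from the cap mesenchyme, a layer of progenitors around each tip of the branching ureteric bud. Six2 holds these cells in the progenitor state, Cited1 marks the least advanced of them, and Wnt signals from the bud start their conversion to epithelium. The progenitor pool renews itself through gestation and is used up around birth. In many embryonic tissues the passage from early to late progenitors is tied to a heterochronic pathway, in which Lin28 proteins hold back the maturation of let-7 microRNAs, and let-7 represses mRNAs such as those of the Hmga and Igf2bp genes.

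The let-7 seed match is shown because it occurs in the 5 genes of that pathway that were lower by 1 log2 unit or more at E18.5, and in Lin28b. Bases 2 to 8 of the mature microRNA, its seed, are in capitals, and the sequence is that of RefSeq for GRCm38.p6.
mmu-let-7a-5p: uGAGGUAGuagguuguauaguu
The first match to that seed, CTACCTC, in the longest annotated 3' UTR of each gene (GENCODE M21, GRCm38) is in capitals at the end of the following windows, each of 22 bases on the transcript strand.
Igf2bp3: tgcatttttactcaaCTACCTC
Igf2bp1: gctgtgcgaagtaaaCTACCTC
Hmga1: tcctctgttcacaaaCTACCTC
Hmga2: gccgacattcaatttCTACCTC
Trim71: aacattgcctaagtcCTACCTC
Lin28b: acccgggcgggaagtCTACCTC
The windows lie at chr6:49086788-49086809 (minus strand) for Igf2bp3, chr11:95961779-95961800 (minus strand) for Igf2bp1 and chr17:27563277-27563298 (plus strand) for Hmga1. Those of the other 3 lie at chr10:120364225-120364246 (minus strand) for Hmga2, chr9:114512473-114512494 (minus strand) for Trim71 and chr10:45381023-45381044 (minus strand) for Lin28b. Igf2bp3 and Hmga1 had 1 match each, and Igf2bp1, Hmga2, Trim71 and Lin28b had 4 each. Of the 12 genes in the list of developmental timing genes, 10 (83.3%) held at least 1 match. These included Nr6a1 with 8 matches and Arid3a with 2, which were not lower at E18.5 when all cells were compared. The letters occurred in 1058 of 10145 described genes with a 3' UTR (10.4%). The list's UTRs were longer, with a median of 2894.5 bases against 1228, and among 3190 described genes with 2000 bases or more the match occurred in 637. The list was put together from genes known for this pathway, so its share of matches describes the list and is not a result of these cells. MicroRNAs were not measured, and a match is not evidence of a bound site.

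The labels held up in most cells. Six2 was detected, meaning 1 RPKM or more, in 62 of 74 E18.5 and 14 of 18 E13.5 cells. Wt1, a transcription factor of the metanephric mesenchyme, was detected in 71 and 16 cells, and Eya1, a partner of Six2, in 60 and 15. The lowest Six2 value inside the threshold was 2.53 RPKM at E18.5 and 1.22 RPKM at E13.5, and the highest outside it was 0.299 and 0.488 RPKM. Of 16 genes of renal vesicle commitment, the step that follows the progenitor, 9 were detected in at least 1 E18.5 cell and 12 in at least 1 E13.5 cell. Wnt4, which drives that step, was in 73 and 16 cells, and in 22 of 22 and 46 of 49 cells of the interstitium pools, while Lhx1, a vesicle gene, was listed at 0 in all cap cells. A single E13.5 cell had endothelial transcripts, with Cdh5 at 96.6, Kdr at 284 and Cldn5 at 462 RPKM, and Six2 and Wt1 listed at 0. Stromal transcripts stood out in 4 E18.5 and 2 E13.5 cells, with a mean of 2 or more on the log2 scale over 14 stromal genes such as Col1a1, and 1 of these had Six2.

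Age was joined to other differences between the groups. The E18.5 cells came from pool 2 and the E13.5 cells from pool 3, with different dates in their titles. What a pool stands for is not given. The 2 interstitium pools carry the same numbers, 2 and 3. Pool 3 also held the E13.5 mutant cells, so a pool number spans ages and genotypes. Xist was detected in 73 of 74 E18.5 cells, and 6 of these, 5 with Six2, also had a Y-linked gene. Y-linked genes without Xist were detected in 17 of 18 E13.5 cells, and no E13.5 cell had both. Age, pool, date and sex therefore cannot be told apart in this comparison. The number of genes detected ran from 1656 through a median of 5210.5 to 7215 at E18.5 and from 4355 through 5566 to 6661 at E13.5. An ATP synthase pseudogene entry, LOC100503946, stood at 20000 RPKM or more in 20 E18.5 cells and 1 E13.5 cell. At least 1 of 12 housekeeping genes was listed at 0 in 58 of 74 E18.5 and 15 of 18 E13.5 cells, so a value of 0 in a cell may be a lost transcript. No label names an embryo, each age counts as 1 sample, and no test between ages was made. Every SD is the spread between cells. Intervals on shares of cells are exact (Clopper-Pearson, 95%) and account for counting error alone.

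By mean log2 values, more genes stood lower at E18.5 than higher, but by the ratio of mean RPKM more stood higher. Differences are E18.5 minus E13.5 in mean log2(RPKM + 1), a scale that understates the change of low genes, and a gene was described where 10% of the cells of either age had 1 RPKM or more. Of 11423 genes described, 289 (2.53%) had a difference of at least 1 log2 unit upward and 1659 (14.5%) of at least 1 downward, with a median difference of -0.21. In the Six2 cells, 453 of 11123 genes (4.07%) were higher and 1316 (11.8%) lower, with a median of -0.13. The ratio of mean RPKM gave 1717 higher and 1531 lower in all cells, and 1968 and 1300 in Six2 cells. The imbalance also depended on which cells were used. In cells with 4500 to 6500 genes, of which there were 40 at E18.5 and 16 at E13.5, 619 genes were higher and 950 lower. Without the cells high for the pseudogene the counts were 601 and 874. The 12 largest positive and 12 largest negative differences were taken as leading genes, and 18 of the 24 were the same in all cells and in Six2 cells.

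Six3, a homeobox transcription factor best known from forebrain and eye, was present late and listed at 0 early. It lies at chr17:85613608-85626191 in the deposited table (mm10), 58077 bases from the entry of its relative Six2 at chr17:85684268-85688254. At E18.5 its lowest, median and highest values were 0, 14 and 277 RPKM, and it was detected in 60 of 74 cells (81.1%, interval 70.3 to 89.3%). All 18 E13.5 cells had it listed at 0. For such counts of 0 the limit is taken as 3 cells of the group, here 16.7%. Most E18.5 cells thus stood above every E13.5 cell. Six3 followed Six2 among the E18.5 cells, being detected in 56 of the 62 with Six2 and in 4 of the 12 without. The 12 cells without Six2 had fewer genes, from 1656 to 4315 with a median of 3894. Outside the E18.5 cap, Six3 was detected in 0 of 71 interstitium cells, 19 of which had Six2, and in 0 of 73 Pax2 mutant cells, with a highest value of 0.408 RPKM.

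The sequences just upstream of Six3 and Six2 are shown because these neighbours differed by age, with Six3 found at 1 age and Six2 at both. Each is the 250 bases before the RefSeq start site in GRCm38.p6, read 5' to 3' on the gene's strand, with CCAAT and its reverse complement ATTGG in capitals.
Six3: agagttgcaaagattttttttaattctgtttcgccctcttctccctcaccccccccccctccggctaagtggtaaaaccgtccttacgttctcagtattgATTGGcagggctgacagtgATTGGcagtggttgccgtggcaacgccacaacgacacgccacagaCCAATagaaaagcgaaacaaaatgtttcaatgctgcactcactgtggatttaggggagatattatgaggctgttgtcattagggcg
Six2: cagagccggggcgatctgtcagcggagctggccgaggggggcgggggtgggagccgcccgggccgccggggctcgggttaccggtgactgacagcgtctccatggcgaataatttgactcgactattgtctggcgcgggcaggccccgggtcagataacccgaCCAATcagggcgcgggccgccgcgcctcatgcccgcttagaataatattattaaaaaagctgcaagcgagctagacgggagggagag
They lie at chr17:85620584-85620833 (plus strand) and chr17:85688255-85688504 (minus strand), the first inside the deposited Six3 entry. The Six3 window held 3 such boxes and the Six2 window 1. Among 32851 promoter windows of the same length, 33.8% held at least 1 on either strand and 2.79% held 3 or more. Neither window held TATAAA, found on either strand in 12.4% of windows, or CTTTGAT, found in 3.21%. These are descriptions of letters and say nothing of factors bound in the cells.

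Cited1, the transcriptional co-regulator of the least advanced progenitors, was also a late gene here. Its values at E18.5 ran from 0 through a median of 6.36 to 442 RPKM, and at E13.5 from 0 through 0 to 86.4 RPKM. It was detected in 40 of 74 E18.5 cells (54.1%, interval 42.1 to 65.7%) and 3 of 18 E13.5 cells (16.7%, interval 3.58 to 41.4%), and the 2 groups overlapped. The difference was 2.27 in all cells and 2.58 in Six2 cells, where 39 of 62 and 3 of 14 cells had it. In the mutant cells Cited1 was found in 0 of 44 at E18.5 and 2 of 29 at E13.5.

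Egr1, a zinc finger factor of the immediate early response, led the late genes, with a difference of 4.54. It ran from 0 through 61 to 3862 RPKM at E18.5 and from 0 through 0.276 to 73.9 RPKM at E13.5. It was detected in 67 of 74 cells (90.5%, interval 81.5 to 96.1%) against 3 of 18 (16.7%, interval 3.58 to 41.4%), and 34 E18.5 cells stood above the highest E13.5 cell. The mutant cells showed a difference of the same sign, 5.31, with 41 of 44 and 10 of 29 cells. Between the 2 interstitium pools the difference was 0.11. Of 15 described members of the immediate early list, 3 were higher by 1 or more (Egr1, Fos and Junb; background 2.53%) and none lower (background 14.5%), with a median of 0.31. Fos was detected in 27 of 74 and 2 of 18 cells, and Junb in 42 and 3, while Jun differed by only -0.14. The mean of the list per cell was 1.12 ± 0.53 at E18.5 and 0.68 ± 0.21 at E13.5. Atf3, another member, was listed at 0 in all cells of both ages.

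Meis1, a homeobox partner of Hox proteins, led the early genes, with a difference of -3.97. Its entry lies at chr11:18880428-19018969 and contains the gene model Gm16141, so reads may be shared between them. At E18.5 its values ran from 0 through 0.782 to 560.2 RPKM, and at E13.5 from 0.0728 through 95.8 to 558 RPKM. It was detected in 36 of 74 (48.6%, interval 36.9 to 60.6%) and 17 of 18 cells (94.4%, interval 72.7 to 99.9%). The ranges overlapped, with 1 E18.5 cell above the highest early cell. The 4 highest E18.5 cells, at 208 RPKM or more, lacked Six2, and the highest late value in Six2 cells was 126 RPKM. In Six2 cells the difference was -4.74, with 26 of 62 and 14 of 14 cells. Of the 8 described genes of the Meis and Pbx family, Meis3 was the other member lower by 1 or more, at -1.21, while Meis2 differed by -0.16. In the mutants Meis1 was high at both ages, in 42 of 44 and 26 of 29 cells, with a difference of 1.59. It was also high in most of the 71 E18.5 interstitium cells. In the 19 of those with Six2 it ran from 0.338 to 672 RPKM, and most of them stood above 126 RPKM. Low values at E18.5 were thus not shared by most interstitium cells with Six2.

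**Figure D1:**
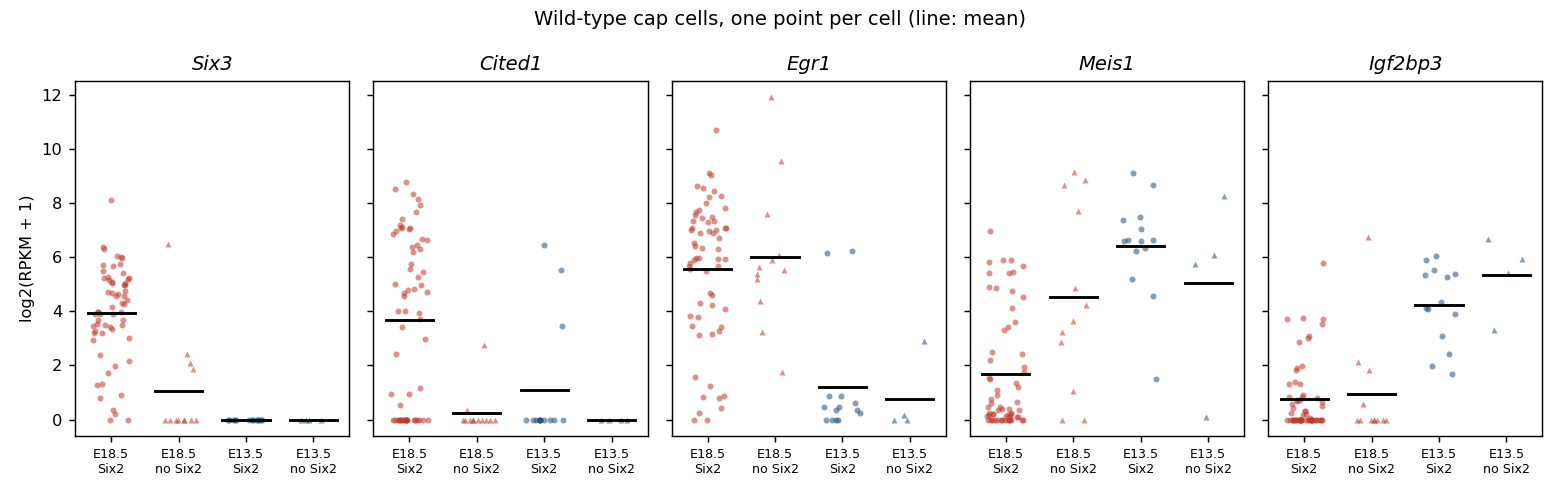
Each point is a wild-type cap cell, with log2(RPKM + 1) on the vertical axis and cells split by age and by Six2 at 1 RPKM; the line is the mean. Six3 is at 0 in every E13.5 cell, while Igf2bp3 is above 0 in every E13.5 cell and in fewer E18.5 cells.

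Igf2bp3, an RNA-binding protein of embryonic tissues that binds Igf2 and other mRNAs, was found in every early cell and in a minority of late cells. It lies at chr6:49085218-49214954. Its E13.5 values ran from 2.24 through 28.3 to 100.1 RPKM and its E18.5 values from 0 through 0 to 108 RPKM. All 18 E13.5 cells had it (interval 81.5 to 100%), against 17 of 74 E18.5 cells (23%, interval 14 to 34.2%), and 60 E18.5 cells stood below the lowest E13.5 cell. The difference was -3.66 in all cells and -3.45 in Six2 cells. In mutant cells it was -2.14, with 11 of 44 E18.5 and 21 of 29 E13.5 cells, and between interstitium pools it was -0.14. Of the 71 E18.5 interstitium cells, 19 had Six2. In those 19 Igf2bp3 ran from 0 to 36.2 RPKM, and most of them had it at 1 RPKM or more. The low share of E18.5 cap cells was thus not found in interstitium cells with Six2.

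The heterochronic list held 11 described members, Igf2bp3 included. Of these, 5 were lower by 1 or more (background 14.5%), none was higher by as much, 3 lay above 0, and the median was -0.70 against -0.21 over all genes. Igf2bp1, a relative of Igf2bp3, ran from 2.29 through 23.7 to 50.9 RPKM at E13.5 and from 0 through 2.85 to 270.1 RPKM at E18.5, a difference of -1.83. It was in all 18 early cells and in 44 of 74 late cells. Hmga2, a chromatin architecture protein, was still detected in 66 of 74 late cells, with a median of 36.4 RPKM against 81.8 RPKM and a difference of -1.66. Its relative Hmga1 differed by -2.62, and the ubiquitin ligase gene Trim71 by -1.43. Lin28b, which blocks let-7 maturation, was detected in 4 of 18 early cells and 0 of 74 late cells, a count of 0 with a limit, at 3 cells, of 4.05%. Lin28a was listed at 0 throughout. Members above 0 included Nr6a1, a nuclear receptor with 8 seed matches, at 0.25, and Dis3l2, an exonuclease of let-7 precursors with none, at 0.46. The mean of the list per cell was 1.52 ± 0.62 at E18.5 and 2.53 ± 0.62 at E13.5, and 31 of 74 late cells were below the lowest early cell.

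The same list was lower with age in the mutant cells too, by a difference of -1.23 in its mean. There Hmga2 differed by -5.01, from 24 of 29 cells at E13.5 to 4 of 44 at E18.5, and Igf2bp1 by -2.39. Both mutant groups were mostly cells with Xist, 42 of 44 and 27 of 29 without any Y-linked transcript. Pool and date differed between them as in the wild type. The pool was 4 at E18.5 and 3 at E13.5, and pool 3 was also that of the wild-type E13.5 cells. Other measures moved with age in the mutants as well, and their part in the result was not tested. The median number of genes was 3643 at E18.5 and 4560 at E13.5, the mean over the stromal list was higher at E18.5 by 2.55, and Six2 was detected in 9 of 29 cells at E13.5 and 1 of 44 at E18.5. Between interstitium pools of 1 age the timing list differed by -0.23, though Hmga1 differed by -1.34 and Igf2bp2 by -1.30 there.

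**Figure D2:**
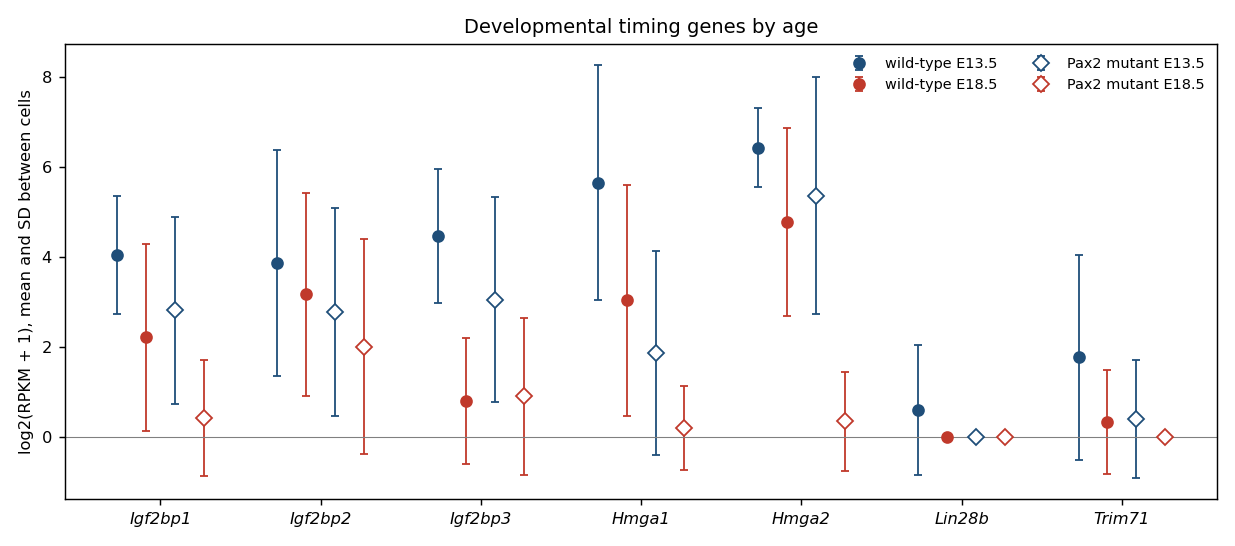
Points are mean log2(RPKM + 1) and bars the SD between cells for 7 timing genes in wild-type (filled) and Pax2 mutant (open) cap cells at E13.5 (blue) and E18.5 (red). In the wild type all 7 means are lower at E18.5, by -3.66 for Igf2bp3 and -0.70 for Igf2bp2. The 7 are part of a list of 12, and its 3 described members above 0 are not drawn.

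Most genes that define the progenitor were present at both ages. Of 17 described members of the nephron progenitor list, 3 were higher by 1 or more (background 2.53%), 3 lower (background 14.5%), and the median was -0.27. Six2 itself ran from 0 through 65.2 to 596 RPKM late and from 0 through 23 to 185 RPKM early, a difference of 1.13 in all cells. Crym, a thyroid hormone binding protein of the cap, differed by 1.99. Among the lower genes, Meox2, a mesenchymal homeobox factor, was detected in 8 of 74 late and 12 of 18 early cells, with medians of 0 and 15.7 RPKM and a difference of -3.12. Hoxa11, which patterns the kidney together with Hoxd11, differed by -1.54, with 20 of 74 and 12 of 18 cells, while Hoxd11 differed by 0.14. The zinc finger factor Sall1 differed by -1.06, a value that became 0.088 in cells matched for gene number and free of the pseudogene. Eya1 (-0.27), Wt1 (0.33), Osr1 (0.33), Pax2 (-0.62) and the bud-attracting ligand Gdnf (-0.40) all differed by less than 1.

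Within the Hox clusters the direction varied by gene. The Hox list, drawn as posterior Hox, also holds central genes such as Hoxc6 and Hoxc8. Among its 18 described genes, 3 were higher by 1 or more (background 2.53%). All 3 belong to the HoxC cluster: Hoxc8 (1.68), Hoxc9 (1.54) and Hoxc6 (1.13). In Six2 cells Hoxd8 of the HoxD cluster was also past 1, at 1.28. Hoxc8 was detected in 73 of 74 late and 13 of 18 early cells, with medians of 24.1 and 9.32 RPKM, and 25 late cells stood above the highest early cell. These 3 did not show it in mutant cells, where they differed by 0.29, -0.16 and -0.06. The podocyte list, which holds factors also used by early mesenchyme, had 3 of 6 described members lower (background 14.5%). Tcf21, a mesenchymal helix-loop-helix factor, differed by -2.09, the forkhead factor Foxc2 by -1.69 and Dach1, a cofactor in the Eya network, by -1.62. Between interstitium pools Tcf21 differed by -1.07, and what part the pool had in its difference here was not tested. Genes of mature podocytes were scarce, with Synpo, Ptpro, Clic5 and Magi2 under 1 RPKM in every early cell, Podxl at 0 in every late cell, and Ptpro detected in 8 late cells.

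Some genes of FGF response and bud guidance were higher late. Of 9 described FGF response genes, 3 were higher by 1 or more (background 2.53%) and none lower (background 14.5%), with a median of 0.36. Spry2, a feedback inhibitor of FGF signalling, had medians of 63.9 and 20.7 RPKM, a difference of 1.82, with 31 late cells above every early cell. The ETS factors Etv4 and Etv5 differed by 1.31 and 1.16, with Etv4 detected in 70 of 74 and 14 of 18 cells. The ligand Fgf1 was detected in 49 of 74 late and 3 of 18 early cells (difference 2.01), although the highest early cell reached 176 RPKM. The receptor Fgfr1 differed the other way, by -1.0, and Fgf9 by 0.04. In the bud guidance list, 4 of 11 described genes were higher (background 2.53%) and none lower, 2 of them shared with the FGF list. Gfra1, a co-receptor for GDNF, differed by 1.31. Robo2, the Slit receptor that limits where the bud forms, differed by 1.84, with medians of 57.6 and 22.1 RPKM. Between interstitium pools Etv5 differed by -1.12, the other direction. The mutants did not show these differences, with Spry2 at 0.06, Etv4 at -0.90 and Robo2 at -3.14.

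Other signalling lists held differences in both directions. In the retinoic acid list 3 of 11 described genes were higher (background 2.53%) and 3 lower (background 14.5%). Aldh1a2, which makes retinoic acid, differed by 1.43 and the retinaldehyde reductase Dhrs3 by 3.08. The binding protein Crabp2 differed by -1.59 and the retinol dehydrogenase Rdh10 by -1.02. Between interstitium pools Crabp2 differed by -1.38, and what part the pool had was not tested. Dhrs3 rests on how often it was detected, since its highest values were 5638 RPKM late and 2608 RPKM early, and in Six2 cells the ratio of mean RPKM gave -0.065 in place of 3.76. Of 13 described BMP pathway genes 4 were lower (background 14.5%) and none higher. Id2, an inhibitor of helix-loop-helix factors, had medians of 131 and 518 RPKM (difference -2.27), and the ligand Bmp4 was detected in 14 of 74 and 8 of 18 cells (difference -1.09). Between interstitium pools of 1 age these genes differed by -1.09 and -1.08, and what part the pool had was not tested. Fgf8, a renal vesicle ligand, was detected in 4 of 18 early cells and listed at 0 in all 74 late cells.

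Il33, a nuclear cytokine of the interleukin 1 family, ran from 0 through 83.2 to 1609 RPKM late and from 0 through 0 to 117 RPKM early, with 59 of 74 and 4 of 18 cells and a difference of 4.31. Igfbp5, which binds insulin-like growth factors, differed by 3.55, with medians of 41.5 and 0.766 RPKM. The glutamate transporter Slc1a3 (3.06) and Enpp2, which produces lysophosphatidic acid (2.96), each had an early median of 0. Slc1a3 showed 41 late cells above the highest early cell, at 11.6 RPKM. Tenascin C, encoded by Tnc, was listed at 0 in all 18 early cells and detected in 51 of 74 late cells, with a median of 3.55 and a highest value of 178 RPKM. The matrix protein genes Tgfbi and Vcan differed by 2.70 and 1.42, and the fibronectin gene Fn1 by -1.69, with medians of 3.09 and 19.7 RPKM. Rgs2, a regulator of G protein signalling, differed by 2.41. Snora81 (2.87) lies inside Eif4a2 and AA465934 (2.84) overlaps AI450353, so their reads may belong to those entries. In Six2 cells the 12 leading late genes also held Acaa2, a mitochondrial thiolase (2.99), and the actin-binding peptide gene Tmsb4x (2.93).

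Ccnd2, a cyclin of the passage into S phase, ran from 5.57 through 67.4 to 234 RPKM early and from 0 through 0.713 to 542 RPKM late, a difference of -3.25, and 48 late cells were below the lowest early cell. Cdc34, a ubiquitin-conjugating enzyme, was detected in 14 of 18 early and 14 of 74 late cells, and the sulfotransferase gene Chst2 in 14 and 15. Mrpl12, a protein of the mitochondrial ribosome, differed by -3.56, with 37 late cells below the lowest early cell. Mthfd2, a mitochondrial folate enzyme, had medians of 106 RPKM early and 0 late. It belongs to the serine and one-carbon list, of which 5 of 12 members were lower (background 14.5%) and none higher (median -0.92). Tdg, a DNA glycosylase that removes oxidised methylcytosine, differed by -2.62, and was detected in 17 of 18 early and 43 of 74 late cells.

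The mitotic genes were lower late as a group. In the list of 16 genes of G2 and mitosis, 15 members had differences of -1 or beyond (background 14.5%). All 16 were below 0 (64% of all described genes were), and the median was -2.15. In Six2 cells 14 of 16 were lower (background 11.8%), with a median of -1.76. Aurka, a spindle kinase, had medians of 105 RPKM early and 0 late, and the cyclin gene Ccnb1 had 201 and 1.87 RPKM. The ranges overlapped, since some late cells stood as high as early ones: the mean of the list ran from 0.41 through 3.09 to 7.85 at E18.5 and from 0.34 through 6.13 to 7.44 at E13.5. Top2a was detected in 63 of 74 and 17 of 18 cells, and Aurka in 29 and 15. S phase genes differed less, with 6 of 16 lower (background 14.5%) and a median of -0.87. Of the cell cycle inhibitors, Cdkn1a was detected in 19 of 74 late cells and listed at 0 in all early ones, while Cdkn1c differed by -2.79, with medians of 22.3 and 154 RPKM. The mutants showed a difference of -2.07 over the G2 and M list.

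Cdkn1c belongs to the imprinted growth list, of which 6 of 20 described genes were lower by 1 or more (background 14.5%) and 1 higher. The growth factor Igf2 had medians of 21 RPKM late and 70.9 RPKM early (difference -2.21), and the noncoding RNA H19, its neighbour, had 100.4 and 274 RPKM (difference -2.13). Every early cell had both. In the mutants these 3 genes differed the other way, by 1.73, 2.17 and 1.37.

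**Figure D3:**
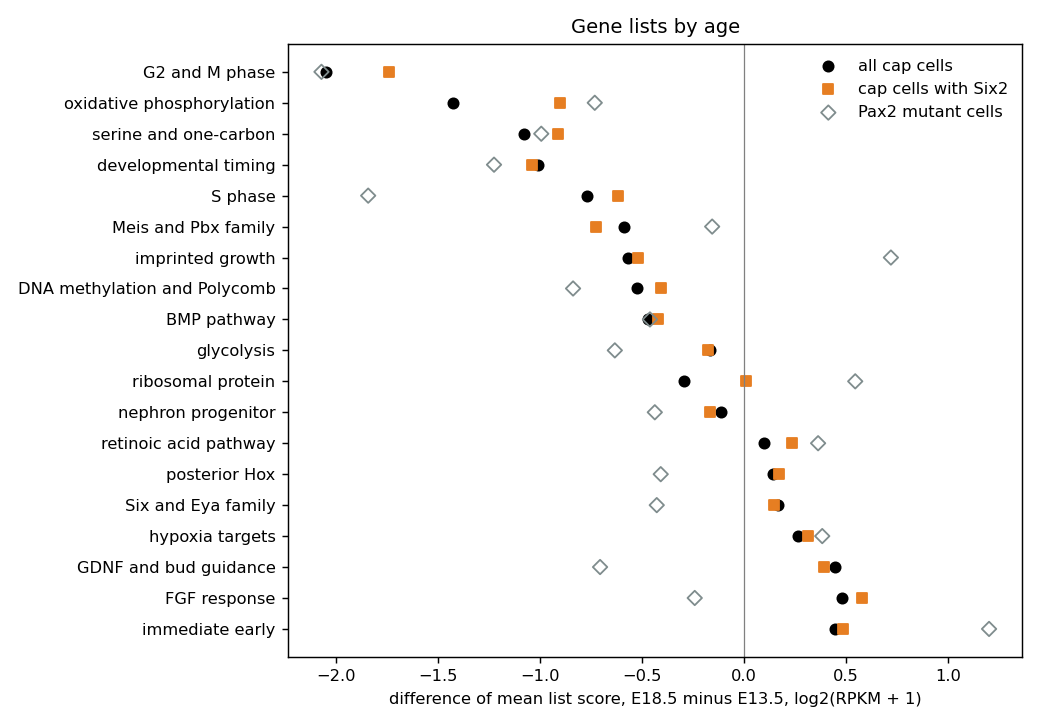
Each row is a gene list and each symbol the difference, E18.5 minus E13.5, of its mean log2(RPKM + 1) in all cap cells, in cap cells with Six2 and in Pax2 mutant cells. All cap cells and cap cells with Six2 lie near each other for most lists, with oxidative phosphorylation at -1.42 and -0.90 the widest gap.

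The oxidative phosphorylation list moved with the number of genes per cell. All 14 oxidative phosphorylation genes were below 0 (64% of all described genes were). Of them, 12 were lower by 1 or more (background 14.5%), with a median of -1.49. In Six2 cells 4 were lower (background 11.8%), with a median of -0.79. The mean of the list was 3.87 ± 1.96 in the 20 late cells with fewer genes than any early cell, 6.86 ± 1.12 in the other late cells and 7.48 ± 0.77 in early cells. Across the 74 late cells, which share a pool, it had a Pearson r of 0.76 with gene number. The corresponding r was 0.56 for the G2 and M list, 0.47 for the timing list and 0.46 for the immediate early list. The timing list was 1.02, 1.70 and 2.53 in the same 3 sets of cells. Ribosomal protein genes had a median of -0.25 in all cells and 0.04 in Six2 cells, and glycolysis genes -0.18 and -0.26.

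**Figure D4:**
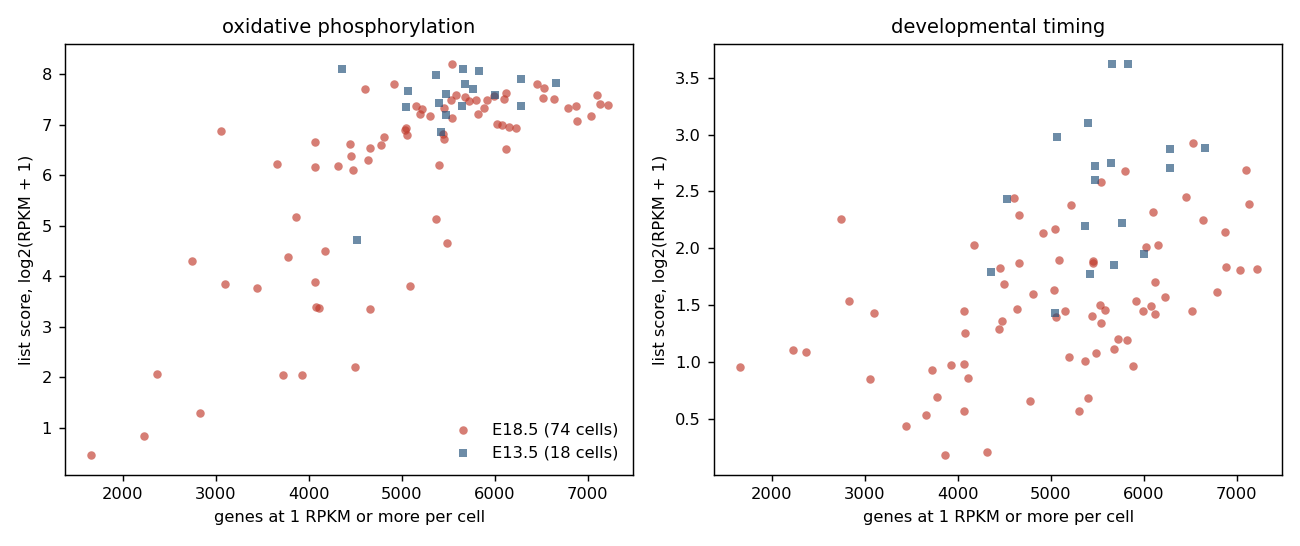
Each point is a wild-type cap cell, with its number of detected genes on the horizontal axis and the mean log2(RPKM + 1) of the list on the vertical axis. The 20 late cells with fewer genes than any early cell average 3.87 for oxidative phosphorylation, against 7.48 in early cells.

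Among late progenitors, early and late genes were found in the same cells. Of the 62 E18.5 cells with Six2, the 26 that had Meis1 included 18 with Cited1 and 25 with Six3, and the 36 without Meis1 included 21 and 31. The 14 that had Igf2bp3 included 12 with Cited1 and all 14 with Six3, against 27 and 42 of the 48 without. Median gene numbers were 5705.5 with Meis1 and 5337.5 without, and 5508.5 with Igf2bp3 and 5427.5 without. A late score per cell was the mean over the 12 genes with the largest positive differences in the Six2 comparison. An early score was the mean over the 12 with the largest negative ones there. As these genes were picked from these cells, the scores are a description. The late score was 4.60 ± 1.07 at E18.5 and 1.45 ± 0.75 at E13.5, with 63 of 74 late cells above every early cell. The early score was 1.88 ± 1.06 and 5.13 ± 1.10, with 14 of 18 early cells above every late cell. The E18.5 interstitium cells had a late score of 3.97 ± 0.89 and an early score of 3.12 ± 1.04. Their highest early score was 5.16, against 4.5 in E18.5 cap cells. In the 19 interstitium cells with Six2 the early score ran from 1.56 to 5.16 and the late score from 2.01 to 5.01. Most of these 19 had an early score above 1.99, the mean of E18.5 cap cells with Six2. All 19 stood below 5.46, the mean of E13.5 cap cells with Six2.

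The values of the Pax2 mutant cells played no part in the choice. There the 12 late genes of the all-cell comparison had a median difference of 1.04 between ages. Of them, 6 were higher by 1 or more (6.69% of 10872 described genes were). For the 12 late genes of the Six2 comparison, which make up the late score, the values were 1.53 and 7. The early genes had a median of -1.39 for the all-cell set and -1.48 for the Six2 set. In each set 10 of 12 were lower by 1 or more (11.5% of genes were). The leading genes had to be detected in 50% of wild-type cells of the higher age, and described genes in 10% of either age. The shares are therefore not fully alike. Mutant cells also differed by age in median gene number (3643 at E18.5, 4560 at E13.5) and in the G2 and M list (-2.07). What part these had was not tested. The sign was that of the wild type for 8 of 12 late and 11 of 12 early genes in each set. The exceptions among the late genes were Six3, which no mutant cell had, Slc1a3 (-0.67), Enpp2 (-0.34) and Snora81 (-1.30). Among the early genes the exception was Meis1 (1.59), which led them in the wild type. The 2 interstitium pools share age and title date and hold nearly only cells with Y-linked genes. Between them the 12 late and 12 early genes of the all-cell set had medians of 0.07 and -0.06. Of these, 1 late gene and no early gene were past 1 in the matching direction. The Six2 set had medians of 0.07 and -0.11, with 1 late and 1 early gene past 1. Late scores in mutants were 3.65 ± 0.97 at E18.5 and 2.03 ± 0.82 at E13.5, with 20 of 44 late cells above every early cell. Their early scores were 1.59 ± 0.58 and 2.81 ± 1.36, with 3 of 44 late cells below every early cell and 11 of 29 early cells above every late cell.

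**Figure D5:**
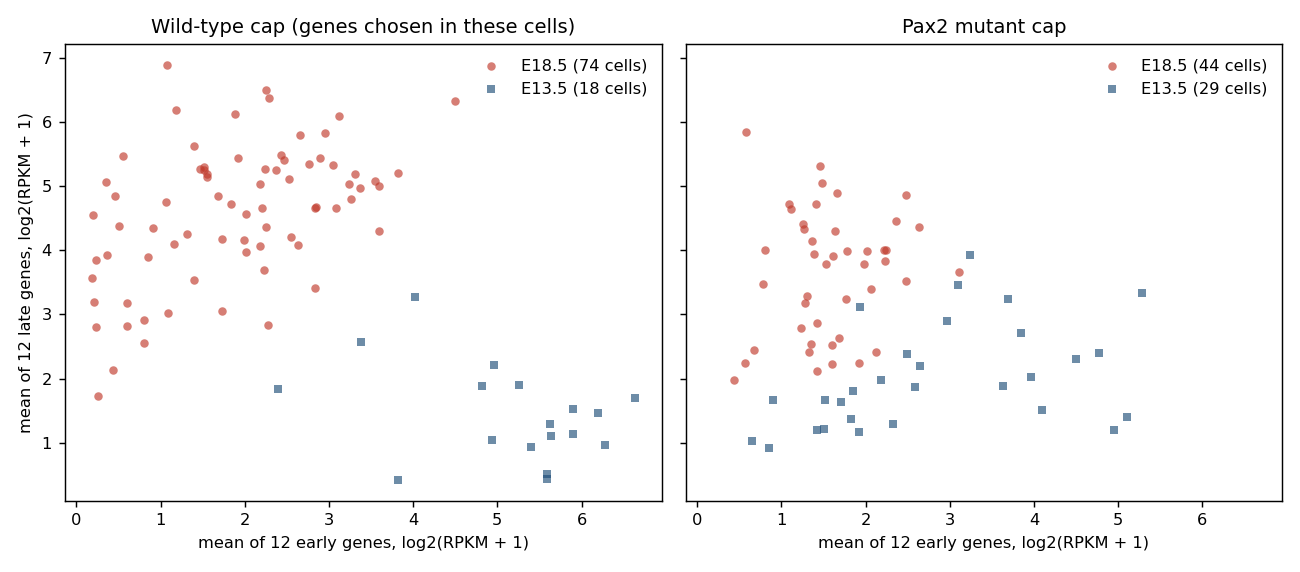
Each point is a cell, with the mean log2(RPKM + 1) of the 12 early genes on the horizontal axis and of the 12 late genes on the vertical axis, for wild-type cap (left) and Pax2 mutant cap (right) at both ages. The genes are those leading in the Six2 comparison. Wild-type cells lie apart by age in the genes chosen from them, and 20 of 44 E18.5 mutant cells lie above every E13.5 mutant cell on the late score.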

How the data were processed

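The authors deposited 1 table of RPKM for 36186 gene entries in 237 cells, per the file headers, made from reads aligned to mm10 with TopHat, per the submitters' processing notes. Gene models and counting are not given in the sources used here. Depth is unknown: ratios of low values between 87 pairs of cells showed no steps, with a median of 14.6% of ratios falling in the 3 fullest bins (width 0.02 in log2). No 2 cap cells were alike (highest correlation 0.809, median 0.602). Values were used as log2(RPKM + 1) and averaged per age with Python 3.11.15, numpy 2.4.6 and pandas 2.3.3. The code was checked on simulated data. No doublet caller was used. Named genes are the 12 largest differences in each direction, among genes detected in 50% of cells of the higher age, without gene models, mitochondrial, ribosomal, haemoglobin and sex-linked genes, plus members of 46 lists (575 genes, 3 without an entry). The members and lists were chosen with earlier results of these data known. Tried alternatives were the pseudocount, the averaging, scaling, filters, and which cells entered. A cell with conflicting labels was left out.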

Additional observations from a re-analysis of the deposited data

Results flagged for a closer look

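Among the leading genes and Cited1, Meis1 and Snora81 had age differences past 1 log2 unit in opposite directions in wild-type and Pax2 mutant cap cells. Genes outside that set did so too, such as Cdkn1c (-2.79 and 1.73) and H19 (-2.13 and 1.37). For Meis1 the difference was -3.97 in wild-type cells and 1.59 in mutant cells, and for Snora81 it was 2.87 and -1.30. Snora81 lies inside Eif4a2, and the stromal list was higher by 2.55 in E18.5 than in E13.5 mutant cells. None of these differences between genotypes was tested. A cell that no comparison used also carried signal: the E13.5 cell whose source label names the cap while its cell type label names interstitium had Six2 at 143 RPKM and Igf2bp3 at 18.49 RPKM.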

How the results depend on the processing

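No paired analysis was possible because the labels tie no late cell to an early cell. The counts of genes higher and lower by 1 log2 unit, 289 and 1659 in all cells, became 974 and 3059 with a pseudocount of 0.1, 39 and 322 with 10, 619 and 950 in cells with 4500 to 6500 genes, and 601 and 874 without pseudogene-high cells. Cells within the gene numbers of the E13.5 cells and without the pseudogene, an alternative chosen after seeing the data, gave 682 and 835. The ratio of mean RPKM gave 1717 higher and 1531 lower, which turns the balance of the counts. In Six2 cells, 453 and 1316 became 1394 and 2593 with 0.1 and 61 and 231 with 10, and 1968 and 1300 by the ratio of means, which again turns the balance, and the higher count became 708 without pseudogene-high cells. The cause was not tested. Leaving out cells with stromal or endothelial markers, also added after seeing the data, gave 328 and 1921 in all cells and 484 and 1424 in Six2 cells. The immediate early mean became 0.97 in all cells and 0.91 in Six2 cells by the ratio of means. Sall1 in all cells turned from -1.06 to 0.088 with matched gene numbers and no pseudogene, and Dhrs3 in Six2 cells from 3.76 to -0.065 by the ratio of means. Egr1, Six3, Cited1, Meis1 and Igf2bp3 kept their sign in all 13 alternatives for all cells and all 15 for Six2 cells, as did the timing, G2 and M, and oxidative phosphorylation lists. The means of the nephron progenitor, S phase, glycolysis, ribosomal, heat shock and housekeeping lists changed sign in at least 1 alternative, as did the stromal, retinoic acid and Eya family lists in all cells. Cells without Top2a (1 at E13.5) and Six2 cells without Wnt4, Lhx1 and Pax8 (1 at each age) were too few for a value. The number of early cells, 18, limits what a listing at 0 can show.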

Other observations

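The E13.5 cell with conflicting labels, from pool 4, had 6570 genes detected. Beside Six2 it held other cap genes, with Wt1 at 234 and Eya1 at 67.4 RPKM, while the interstitial gene Foxd1 and the stromal gene Pdgfra were listed at 0. Its timing and early genes were present, with Meis1 at 375, Igf2bp1 at 29.2 and Hmga2 at 97.4 RPKM. Six3 and Cited1 were listed at 0 in it, and Egr1 stood at 38.8 RPKM.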
